A study of Mus musculus with 13 samples.

Results

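The genes described here were 10 mouse genes of skeletal muscle, of 49315 genes counted, measured in whole back skin on postnatal day 4 (P4). They were chosen by name and function, with earlier results of these data known: the satellite cell gene *Pax7*, the myogenic regulatory factors *Myf5*, *Myod1*, *Myog* and *Myf6*, the fusion gene *Mymk*, and the muscle acetylcholine receptor subunit genes *Chrna1*, *Chrnd*, *Chrng* and *Chrne*. All 10 had reads in each of the 6 libraries. *Chrnb1*, the remaining subunit gene of the muscle receptor, is given beside them for comparison.

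The study asked what loss of the proteins KCTD1 and KCTD15 from keratinocytes does to skin, and RNA-Seq of full-thickness back skin compared 3 mice of the genotype *K14Cre+Kctd1 fl/fl Kctd15 fl/fl* (here DKO) with 3 WT littermates. Both groups were P4 and untreated as far as the labels state, and the sources used here do not say whether WT mice carried Cre or floxed alleles. The *K14* (*Krt14*) promoter drives Cre in keratinocytes, so both genes were floxed in every cell of a DKO mouse while deletion was directed to keratinocytes. Libraries were made from rRNA-depleted RNA and held 11263863 to 17643043 counted fragments.

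Skeletal muscle forms when progenitors marked by PAX7 activate the basic helix-loop-helix factors MYF5 and MYOD1, which bind DNA at E-boxes, and then express myogenin (*Myog*) and *Myf6*. Myoblasts fuse into fibres through the membrane protein myomaker (*Mymk*). The fibre's acetylcholine receptor, a pentamer of α, β, δ and γ or ε subunits, receives the signal of the motor nerve, and around birth the fetal γ subunit gives way to the adult ε subunit. Mouse back skin contains such fibres in the panniculus carnosus, a muscle sheet beneath the dermis.

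Whole-gene counts did not show the deletion. *Kctd1* was 432 ± 19.0 (SD, n = 3) normalized counts in WT and 742 ± 240 in DKO skin, and *Kctd15* was 745 ± 15.5 and 1321 ± 189. Both were higher in each DKO library than in each WT library. Neither difference passed the edgeR test (adjusted p = 0.342 and 0.107), although both adjusted p fell below 0.05 without DKO library 1 (0.0335 and 0.0173). With all 6 libraries, the adjusted p was 0.0783 and 6.32e-04 by DESeq2, and 0.0306 and 0.00293 by edgeR with no filter on low counts. The log2 fold changes of both genes were below 1 in these fits. Deletion removes single exons, which whole-gene counts do not resolve, so these values check neither the labels nor the loss. In their titles, WT library 3 and DKO library 1 share the number 40972 and the other 4 libraries the number 47347, and the labels do not say what it marks. Normalized counts are raw counts rescaled to the average TMM-adjusted size of the 6 libraries. In bulk skin, fewer cells of a type and less RNA per cell cannot be told apart.

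No member passed the threshold for a call, which was an edgeR quasi-likelihood adjusted p below 0.05 over all tested genes with a log2 fold change beyond 1. In all, 0.0694% of the 20168 tested genes were called, 0.0397% as higher in DKO. Of the 10 genes, 9 entered the test and *Myf5* had too few counts. *Pax7* and *Mymk* entered only through their DKO libraries, since fewer than 3 WT libraries reached the minimum, so counts over the tested genes are given as a description. The log2 fold change (DKO minus WT) of the 9 genes ran from 0.42 for *Chrne* to 1.63 for *Chrnd*, with a median of 0.86 beside 0.02 over all genes tested, of which 52.9% were above 0. An unadjusted p below 0.05 with the higher level in DKO was found for 5 of the 9, *Chrna1*, *Chrnd*, *Mymk*, *Pax7* and *Myf6*, beside 4.96% of all genes tested. With no filter on low counts, all 10 were higher in DKO, where 49.3% of 33677 genes were. The log2 fold changes then ran from 0.23 to 1.61 with a median of 0.77 beside -0.01 over all genes, 6 of the 10 had an unadjusted p below 0.05 beside 4.13% of genes, and *Chrnd* was called, as were 0.395% of genes in that direction. DESeq2, which the paper used with the same thresholds, also called *Chrnd* among the 10, as it did 0.498% of genes in that direction. It gave 4 of the 10 an unadjusted p below 0.05 with the higher level in DKO, beside 2.9% of genes.

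**Figure D1:**
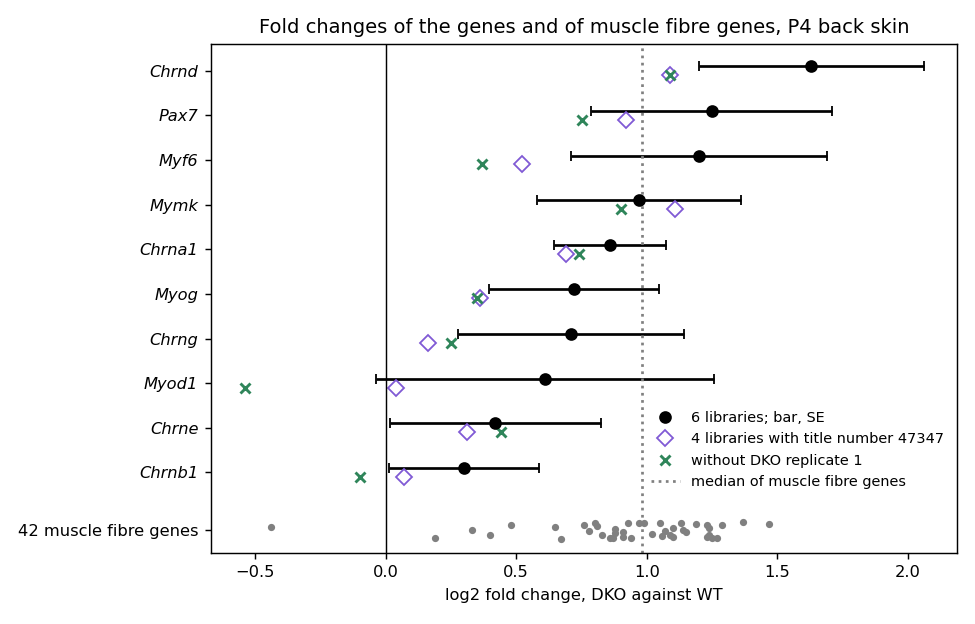
Log2 fold change, DKO minus WT, of each of the 9 tested members and of *Chrnb1* from the edgeR fit to 3 WT and 3 DKO libraries, with bars for the SE, the values within the libraries numbered 47347 (diamonds), those without DKO library 1 (crosses), and the 42 muscle fibre genes as points with a dotted line at their median. The fitted values of the 10 named genes lie above 0, and the fit without DKO library 1 puts *Myod1* and *Chrnb1* below 0.

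The differences were unequal among DKO libraries. The normalized counts of the 10 genes summed to 231, 211 and 250 in WT libraries 1 to 3 and to 666, 374 and 303 in DKO libraries 1 to 3. DKO library 1 held the highest value of the 6 libraries for 8 of the 10 genes. For 6 of the 9 tested genes, the lowest DKO library exceeded the highest WT library, beside 7.24% of all genes tested. These were *Pax7*, *Myog*, *Mymk*, *Chrna1*, *Chrnd* and *Chrng*. Because *Pax7* and *Mymk* entered the test only through their DKO libraries, this count is given as a description. Within the 4 libraries numbered 47347, *Chrna1* and *Chrnd* kept an unadjusted p below 0.05 by edgeR (0.0304 and 0.0338), beside 3.24% of genes tested in that direction. The pair numbered 40972, with 1 library per group and no test, had log2 ratios of DKO to WT from 0.60 for *Chrne* to 2.33 for *Chrnd*.

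**Figure D2:**
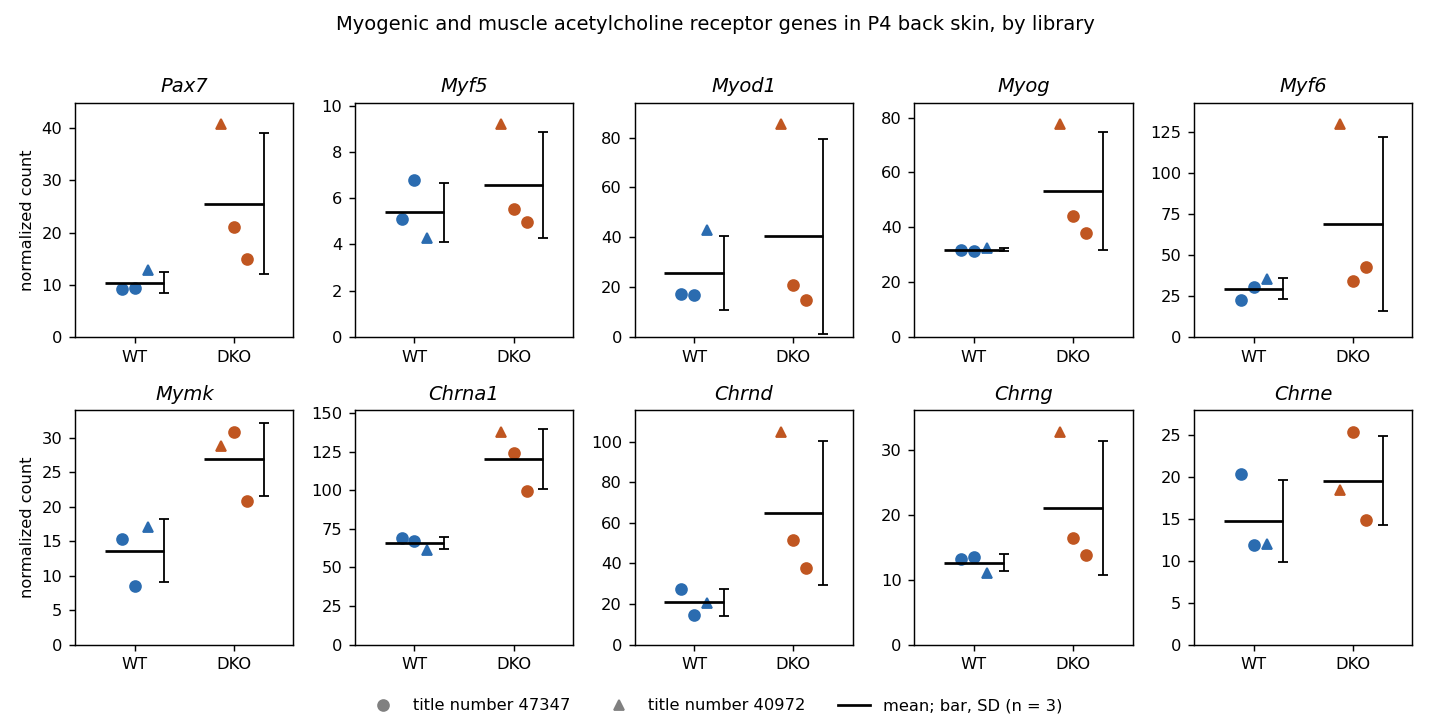
Normalized count (linear axis from 0) of each member in the 3 WT and 3 DKO skin libraries, with the group mean and SD; marker shape gives the number in the library's title. DKO library 1 is the top point in most panels, reaching 130 for *Myf6* and 138 for *Chrna1*.

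The genes were first read by their place in the myogenic sequence. *Pax7* (chr4:139737062-139833528, minus strand, GRCm38) encodes the paired-box factor of satellite cells. It had 9, 11 and 15 raw counts in WT libraries 1 to 3 and 31, 19 and 15 in DKO libraries 1 to 3. After normalization these were 9.17, 9.34 and 12.8 in WT and 40.8, 21.0 and 14.9 in DKO skin. The DKO values spread over a wide range, and the lowest of them lay just above the highest WT value. DKO exceeded WT by a log2 fold change of 1.25 (SE 0.462, unadjusted p = 0.0225, edgeR adjusted p = 0.524), and it was 0.92 within the libraries numbered 47347.

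*Myf5* (chr10:107482908-107486134, minus strand), the factor of the earliest committed myoblasts, was at the lower end of what these libraries resolve. Its raw counts were 5, 8 and 5 in WT and 7, 5 and 5 in DKO libraries. Summed, these were 18 counts in WT (exact Poisson 95% interval 10.7 to 28.4) and 17 in DKO (9.9 to 27.2), intervals that cover counting error only. The groups overlapped, and a difference was not detectable at this depth: without the filter the log2 fold change was 0.23 (SE 0.757, edgeR adjusted p = 0.973). *Myf6*, its neighbour 6725 bp away on the same strand, was counted more often.

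*Myod1* (chr7:46376474-46379099, plus strand), the factor that commits cells to the muscle lineage, followed the number in the titles more than the genotype. The normalized counts were 17.3, 17.0 and 42.8 in WT and 85.4, 21.0 and 14.9 in DKO libraries. The 2 libraries numbered 40972 were the highest of their group, and the other 4 lay between 14.9 and 21.0 whatever their genotype. The log2 fold change of 0.61 (SE 0.648, edgeR adjusted p = 0.935) was 0.04 within the libraries numbered 47347 and turned to -0.54 without DKO library 1 (adjusted p = 0.832).

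*Myog* (chr1:134289989-134292548, plus strand), which drives terminal differentiation, was even among WT libraries at 31.6, 31.4 and 32.5 normalized counts. DKO libraries had 77.6, 44.1 and 37.8, all above WT, and raw counts of 59, 40 and 38 against 31, 37 and 38. The difference was 0.72 on the log2 scale (SE 0.326, unadjusted p = 0.0514, edgeR adjusted p = 0.669) and was 0.35 without DKO library 1.

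*Myf6* (chr10:107492860-107494729, minus strand), the regulatory factor that mature fibres keep expressing, had 22.4, 30.6 and 35.1 normalized counts in WT and 130, 34.2 and 42.8 in DKO libraries. DKO library 1 stood far above the rest, while DKO library 2 lay below WT library 3, so the groups overlapped. The log2 fold change was 1.20 (SE 0.490, unadjusted p = 0.0347, edgeR adjusted p = 0.601) and fell to 0.37 without DKO library 1.

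*Mymk* (chr2:27061636-27072179, minus strand), whose product lets myoblasts merge, differed from the genes above in that DKO library 1 was not its highest. Normalized counts were 15.3, 8.49 and 17.1 in WT and 28.9, 30.9 and 20.9 in DKO libraries. All DKO libraries lay above WT. On the log2 scale the fold change was 0.97 (SE 0.391, unadjusted p = 0.0326, edgeR adjusted p = 0.584), and it was 1.11 within the libraries numbered 47347 and 0.74 in the pair numbered 40972.

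The receptor genes were next read with the sequence before their start sites, since myogenic factors are known to bind E-boxes at such genes. The RefSeq promoter table (GRCm38.p6) matched 6 of the 10 members, *Pax7*, *Myf5*, *Myog*, *Chrna1*, *Chrng* and *Chrne*, as well as *Chrnb1*. It was searched on both strands for the E-box CANNTG and for the N-box CCGGAA, a motif known from synaptic genes, within bases 250 to 26 before each start. An E-box was present in 62.7% of 32851 such windows, its CAGCTG form in 11.6% and the N-box in 9.8%. The windows of the shared α, the fetal γ and the adult ε subunit genes and of *Myog* are printed 5′ to 3′ on the gene's strand to show how many motifs each held, with E-boxes and N-boxes in capitals.
Chrna1: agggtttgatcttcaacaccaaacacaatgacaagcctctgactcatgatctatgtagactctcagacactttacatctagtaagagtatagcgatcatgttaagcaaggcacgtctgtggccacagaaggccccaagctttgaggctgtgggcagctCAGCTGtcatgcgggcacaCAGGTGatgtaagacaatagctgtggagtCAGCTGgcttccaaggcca
Chrng: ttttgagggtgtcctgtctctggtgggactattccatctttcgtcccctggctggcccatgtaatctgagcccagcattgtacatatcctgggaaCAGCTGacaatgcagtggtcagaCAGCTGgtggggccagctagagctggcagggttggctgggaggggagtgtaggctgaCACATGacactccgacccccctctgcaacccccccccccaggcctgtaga
Chrne: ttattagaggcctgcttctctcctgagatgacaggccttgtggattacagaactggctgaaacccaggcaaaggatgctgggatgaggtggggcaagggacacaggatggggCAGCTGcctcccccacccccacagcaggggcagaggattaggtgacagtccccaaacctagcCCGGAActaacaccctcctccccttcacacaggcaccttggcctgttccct
Myog: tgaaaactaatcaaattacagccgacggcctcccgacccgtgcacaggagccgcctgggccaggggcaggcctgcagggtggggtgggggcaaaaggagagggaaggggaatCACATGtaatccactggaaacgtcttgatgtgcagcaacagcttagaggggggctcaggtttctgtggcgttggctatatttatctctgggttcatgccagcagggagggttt
The *Chrna1* window (chr2:73580364-73580588, minus strand) held 3 E-boxes, of which 2 were CAGCTG. The *Chrng* window (chr1:87205561-87205785, plus strand) also held 3 with 2 CAGCTG, and it lies inside the annotated gene, between exons, because the RefSeq start is downstream of the first counted exon. The *Chrne* window (chr11:70619220-70619444, minus strand) held 1 CAGCTG and 1 N-box, and the *Myog* window (chr1:134289754-134289978, plus strand) held 1 E-box, CACATG. *Chrnb1* had 2 E-boxes, neither of them CAGCTG, and *Myf5* and *Pax7* had none in this window, although all 225 bases of the *Pax7* window lie in counted exons of that gene. These matches describe the letters only, and binding was not measured.

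Among the subunits common to fetal and adult receptors, *Chrna1* (chr2:73563215-73580338, minus strand), which encodes the α subunit carrying the acetylcholine binding sites, was measured with the most counts of the 10. Raw counts were 68, 79 and 72 in WT and 105, 112 and 100 in DKO libraries. Normalized, they were 69.3, 67.1 and 61.6 in WT (66.0 ± 3.96) and 138, 124 and 99.5 in DKO (120 ± 19.4). No DKO library overlapped WT. Its log2 fold change was 0.86 (SE 0.214, unadjusted p = 0.00259), and the adjusted p was 0.281 by edgeR, with a range of 0.104 to 0.902 over the alternatives. The fold change varied little, at 0.69 within the libraries numbered 47347 and 0.74 to 0.99 with any library left out.

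*Chrnd* (chr1:87190607-87200070, plus strand), the δ subunit gene, had the largest fold change of the members. Raw counts were 27, 17 and 24 in WT and 80, 47 and 38 in DKO libraries, or 27.5, 14.4 and 20.5 against 105, 51.8 and 37.8 after normalization. Every DKO library lay above every WT library. The log2 fold change was 1.63 (SE 0.431, unadjusted p = 0.00381, edgeR adjusted p = 0.306), whereas the adjusted p was 0.0429 by DESeq2 and 0.0133 by edgeR with no filter. Without DKO library 1 it was 1.09 (edgeR adjusted p = 0.502), and over all alternatives the adjusted p ran from 0.0133 to 0.925.

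*Chrnb1* (chr11:69784036-69795943, minus strand), the β subunit gene of the same receptor, had 113, 129 and 167 normalized counts in WT and 248, 135 and 122 in DKO libraries. Only DKO library 1 was above the WT range. The log2 fold change of 0.30 (SE 0.287, edgeR adjusted p = 0.928) was 0.07 within the libraries numbered 47347 and -0.10 without DKO library 1.

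The γ and ε subunit genes were compared to ask whether their developmental exchange differed between genotypes. *Chrng* (chr1:87204657-87212694, plus strand), 4586 bp downstream of *Chrnd*, had 13, 16 and 13 raw counts in WT and 25, 15 and 14 in DKO libraries. Normalized counts were 13.2, 13.6 and 11.1 in WT and 32.9, 16.5 and 13.9 in DKO libraries. DKO library 3 was barely above the highest WT library, and the log2 fold change of 0.71 (SE 0.432, edgeR adjusted p = 0.820) dropped to 0.16 within the libraries numbered 47347.

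*Chrne* (chr11:70614883-70619216, minus strand) had 20.4, 11.9 and 12.0 normalized counts in WT and 18.4, 25.4 and 14.9 in DKO libraries. The groups overlapped, and the log2 fold change was 0.42 (SE 0.405, edgeR adjusted p = 0.928). Unlike *Chrng*, it was not highest in DKO library 1. The log2 ratio of *Chrng* to *Chrne* counts within a library, which does not depend on library size, was -0.60, 0.19 and -0.10 in WT and 0.81, -0.60 and -0.10 in DKO. The means were -0.17 ± 0.40 and 0.04 ± 0.72 and differed by 0.21 (two-sided exact permutation p = 0.6, where 3 against 3 libraries allow no p below 0.1). The difference was less than the spread among DKO libraries and became -0.18 without DKO library 1 and -0.0024 without WT library 1.

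**Figure D3:**
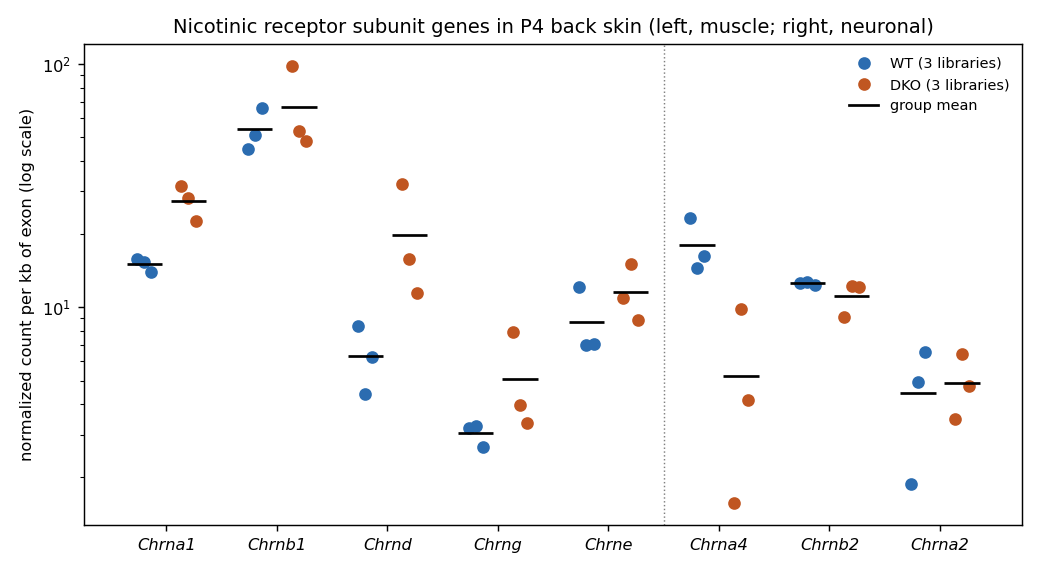
Normalized count per kilobase of counted exon (log axis) of the 5 muscle (left) and the 3 tested neuronal (right) nicotinic receptor subunit genes, with a point for each of 3 WT and 3 DKO libraries and a line at the group mean. *Chrnb1* has the highest mean in both groups, *Chrna1* and *Chrnd* are higher in all DKO libraries, and *Chrna4* is lower in all of them.

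Levels were compared between genes as normalized counts per kilobase of counted exon. In WT skin *Chrnb1* (53.9 ± 10.9) was highest, followed by *Myf6* (23.5 ± 5.14), *Myog* (21.3 ± 0.395), *Chrna1* (15 ± 0.904), *Myod1* (13.8 ± 7.95), *Mymk* (9.02 ± 3.01), *Chrne* (8.73 ± 2.89), *Chrnd* (6.33 ± 1.99), *Chrng* (3.04 ± 0.321), *Myf5* (2.59 ± 0.615) and *Pax7* (1.78 ± 0.353). Of these neighbours, *Chrnb1* and *Myf6*, *Myog* and *Chrna1*, and *Chrnd* and *Chrng* did not overlap across the 3 libraries, and the ranges of all other neighbours did. *Chrne* lay above *Chrng* per kilobase in every library, but the counted exons of *Chrng* span 4163 bp and those of *Chrne* 1690 bp, and the raw counts of the 2 genes overlapped. In DKO skin the first 5 genes kept this order, *Chrnd* (19.8 ± 10.8) came before *Mymk* (17.8 ± 3.5), and *Pax7* (4.36 ± 2.3) before *Myf5* (3.15 ± 1.1). There, *Chrne* (11.6 ± 3.15) and *Chrng* (5.07 ± 2.46) were the one pair of neighbours without overlap.

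Muscle fibre genes moved with the members. Of 42 listed genes of the contractile and metabolic apparatus, 41 had a positive log2 fold change and 36 an unadjusted p below 0.05, with a median of 0.98, and none was called by edgeR while 17 were by DESeq2. Their summed normalized counts ranged from 106333 to 121674 in WT and from 171938 to 365049 in DKO libraries, and the mean log2 level of the list was 8.95, 8.86 and 8.78 in WT and 10.37, 9.48 and 9.27 in DKO libraries. None of the 42 genes was at 0. The DKO libraries stood in the order of the members' sum, whereas among WT libraries WT library 3 was highest for the members' sum and lowest for the list's mean log2 level. The difference of 0.84 between group means had an exact permutation p of 0.1, the smallest that 3 against 3 allow.

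Each member was therefore also measured against the mean log2 level of the muscle fibre list in its own library. The members then split evenly: the difference between DKO and WT was positive for 5 of the 10 and negative for the other 5, and the median over the 10 genes differed by -0.03 (exact permutation p = 0.9). *Chrnd* alone lay higher in each DKO library (-3.65, -3.77 and -4.01) than in each WT library (-4.14, -4.96 and -4.39), a difference of 0.69. *Myf5*, *Myog* and *Chrng* lay lower in each DKO than in each WT library, by -0.61, -0.18 and -0.22. These 4 had an exact permutation p of 0.1, and the other 6 overlapped. The share of all genes that separate by this measure was not computed. The list's mean rose by 0.84, so a gene at an unchanged level would lie lower in DKO by this measure. *Myf5* had 5 to 8 raw counts in a library, and its log2 fold change before this scaling was 0.23 without the filter. *Chrna1* differed by 0.01, with relative levels of -2.82, -2.78 and -2.83 in WT and -3.26, -2.52 and -2.63 in DKO libraries. None of these 14 comparisons of ratios, lists and sums could pass 0.05 in a design of this size.

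**Figure D4:**
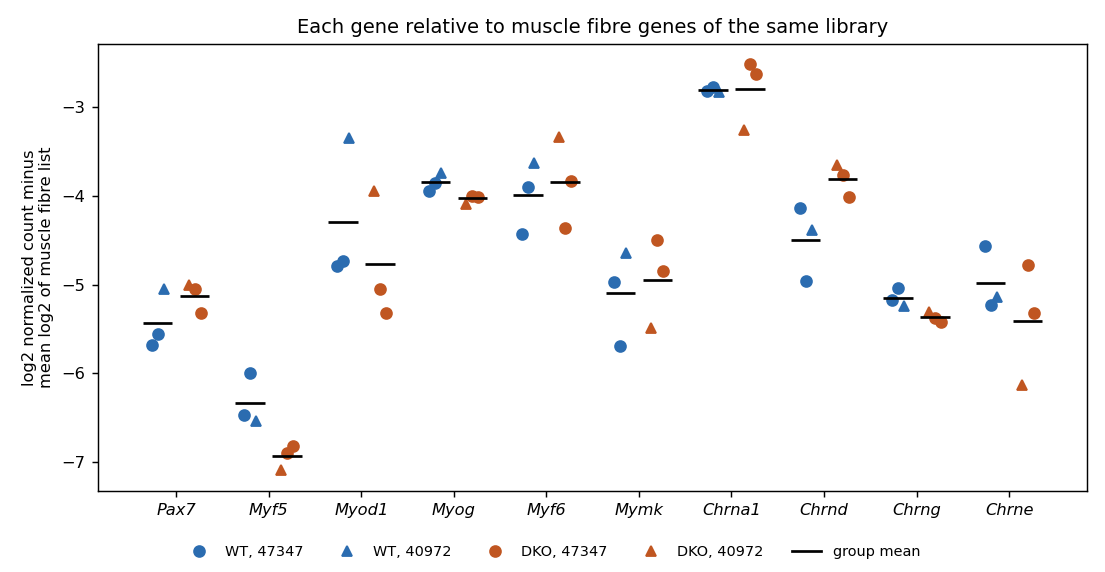
Log2 normalized count of each member minus the mean log2 normalized count of 42 muscle fibre genes in the same library, for 3 WT and 3 DKO libraries, with lines at the group means and marker shape giving the number in the title. *Chrnd* is higher in all DKO libraries, *Myf5*, *Myog* and *Chrng* are lower in all DKO libraries, and the groups overlap for the other 6. A gene at an unchanged level would lie lower in DKO by this measure, because the list's level was higher in DKO.

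Other genes of the muscle program were described by list. Of 26 tested co-regulators of myogenesis, 22 were higher in DKO and 7 of them had an unadjusted p below 0.05, with a median log2 fold change of 0.33 and no edgeR call. The lowest p-values were those of *Rbm24*, an RNA-binding protein of muscle differentiation (85.0 ± 9.62 to 226 ± 101 normalized counts, log2 fold change 1.40, edgeR adjusted p = 0.204), *Vgll2* (1.42, adjusted p = 0.290) and *Eya2* (0.99, adjusted p = 0.299), and DESeq2 called both *Rbm24* and *Vgll2* (adjusted p = 0.00212 and 0.0496). The remaining DESeq2 call of this list was *Smyd1*, a muscle methyltransferase gene, with a log2 fold change of 1.31 in the edgeR fit, 0.66 without DKO library 1, and a DESeq2 adjusted p of 0.0252. Among 20 tested satellite cell genes 16 were higher and 6 had an unadjusted p below 0.05, with a median of 0.23. The smallest p-values were those of *Des*, the intermediate filament gene of muscle, with a log2 fold change of 1.30 (edgeR adjusted p = 0.153, DESeq2 adjusted p = 1.14e-04), of *Fgfr4* (0.63) and of *Heyl* (0.52).

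The one called gene in the 13 lists was *Adgrb1*, an adhesion receptor linked to myoblast fusion and also expressed in other tissues. It had 11.2, 11.9 and 21.4 normalized counts in WT and 73.6, 140 and 103 in DKO libraries, and the groups were far apart. Its log2 fold change was 2.81 (SE 0.358, edgeR adjusted p = 0.0315). The call was lost without WT library 1, 2 or 3 (adjusted p = 0.249, 0.217 and 0.0931) or DKO library 3 (0.114), with log2 fold changes from 2.56 to 3.16 over all libraries left out. Of 18 tested fusion genes 14 were higher, with a median of 0.18, and after *Adgrb1* the smallest p-values were those of *Kirrel* (0.44) and *Dock1* (0.30). *Mymx*, which encodes myomerger, the partner of *Mymk*, had 2, 4 and 4 raw counts in WT and 5, 2 and 3 in DKO libraries and was not tested.

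At the neuromuscular junction, 21 of 26 genes were higher in DKO and 6 had an unadjusted p below 0.05, with a median log2 fold change of 0.19 and no edgeR call. *Scn4a*, the voltage-gated sodium channel gene of skeletal muscle, had a log2 fold change of 1.27 (edgeR adjusted p = 0.298, DESeq2 adjusted p = 0.0164), *Camk2b* of 0.79 and *Colq*, the collagen tail of synaptic acetylcholinesterase, of 0.86 (edgeR adjusted p = 0.479). Of the genes that cluster the receptor, chosen for that role after their values were seen, the receptor kinase gene *Musk* had a log2 fold change of 0.73, the scaffold gene *Rapsn* of 0.44 (0.11 to 1.09 with a library left out), the nerve-derived organizer gene *Agrn* of 0.25 and its receptor gene *Lrp4* of 0.21. The adaptor gene *Dok7* had 10.2, 7.64 and 12.0 normalized counts in WT and 55.2, 19.9 and 14.9 in DKO libraries (log2 fold change 1.56, edgeR adjusted p = 0.486, and 0.78 without DKO library 1). Of 14 activity-regulated muscle genes, 11 were higher and 7 had an unadjusted p below 0.05, with a median of 0.35. *Myh8* and *Sln* had log2 fold changes of 1.37 and 1.96, the latter 1.21 without DKO library 1. The lists share genes and are not separate evidence. *Musk* is also in the satellite cell and junction lists, *Ncam1* in the satellite cell list, and *Myh3* and *Myh8* in the muscle fibre list. *Twist2* is in both the co-regulator and the dermal fibroblast list.

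Of the neuronal nicotinic receptor subunit genes, paralogs of the muscle subunit genes, only 3 of the 11 listed were tested, 2 with a negative and 1 with a positive log2 fold change, and *Chrna6* and *Chrnb3* had no count in any library. *Chrna4* had 117, 73.0 and 81.3 normalized counts in WT and 7.89, 49.6 and 20.9 in DKO libraries, all DKO values being below all WT values, as for 5.96% of genes tested. Its log2 fold change was -1.76 (SE 0.487, edgeR adjusted p = 0.342), -1.38 without DKO library 1 and -2.58 without DKO library 2. The adjusted p was 0.0211 by DESeq2 and 0.00278 by edgeR with no filter. *Chrnb2* (-0.16) was 106, 106 and 103 in WT and 76.2, 103 and 102 in DKO libraries, and *Chrna2* (0.12) changed sign without DKO library 2 or WT library 1.

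Markers of other cells of skin were listed to give their levels beside those of the members. Medians of the log2 fold change were 0.25 for 8 keratinocyte genes, 0.24 for 8 dermal fibroblast genes and 0.39 for 10 tested Schwann cell and motor nerve genes. They were 0.09 for both 8 smooth muscle and 7 brown adipocyte genes. The keratinocyte genes summed to 96963 to 105107 normalized counts in WT and 121657 to 160826 in DKO libraries. *Krt1* (mean 26925 in WT, 46590 in DKO) and *Krt10* (29312 and 40744) were higher in each DKO library than in each WT library. *Krt15* was lower in each DKO library, and the groups overlapped for the other keratinocyte genes. Of 8 cardiac genes only *Myl4* (0.64), also expressed in developing skeletal muscle, was tested, and *Gata4* was at 0 in every library. No gene of these lists was called by edgeR with its filter. DESeq2 called only *Elovl3* of them, as lower in DKO (adjusted p = 0.00429). With no filter, edgeR called *Elovl3* and *Dio2* as lower (adjusted p = 9.07e-04 and 0.0178) and *Cox8b* and *Isl1* as higher (0.0182 and 0.0351). Of the 7 tested brown adipocyte genes 4 were higher and 3 lower in DKO. *Ucp1*, with 1, 3 and 1 raw counts in WT and 14, 4 and 0 in DKO libraries, was not tested. Whether the listed genes were expressed by the cells they are listed for was not tested. The smallest p-values belonged to *Krt1* (0.79), *Krt10* (0.48) and *Krt15* (-0.60), to *Pdgfra* (0.43), *Twist2* (0.44) and *Col3a1* (0.31), to *Isl1* (1.73) and *Pmp22* (0.37), to *Smtn* (0.53), *Myocd* (0.30) and *Myh11* (0.21), and to *Elovl3* (-1.06), *Cox8b* (1.48) and *Dio2* (-1.10), each given as a log2 fold change. In the muscle fibre list they were *Tnni2* (1.23), *Actn2* (1.29) and *Acta1* (1.14). The part of muscle content or of any other cell type in the members' values was not tested beyond the ratios above.

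The genes whose pattern over the 6 libraries was most like the members' median profile were found among 14576 genes with a mean of at least 50 normalized counts. The profile, as log2 differences from the WT mean, was 0.07, -0.14 and 0.03 in WT and 1.35, 0.81 and 0.51 in DKO libraries. *Tpm2*, a tropomyosin gene, differed from it by a root mean square of 0.025, *Pgam2*, a glycolytic enzyme gene of muscle, by 0.074, and *Gm23600*, *Meg3* and *Agt* by 0.0902, 0.11 and 0.11. The median over all candidates was 0.709. This likeness is a description over 6 libraries that share the same group difference.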

How the data were processed

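RNA-Seq was analysed in 3 WT and 3 DKO P4 back skin samples. The deposited values were raw counts per Ensembl gene, which the authors made, per the submitters' processing notes, with Trimmomatic 0.36, STAR 2.5.2b and featureCounts of Subread 1.5.2 on GRCm38. Whether counting used strand is not given in the sources used here. Files of the 7 epidermis samples of 3-week-old mice hold 0 counts for every gene and were not used. Gene coordinates are those given with the deposited counts on GRCm38, and those of the promoter windows come from the RefSeq promoter table. Both are counted from base 1. Symbols were matched to 48970 of 49315 identifiers (99.3%), and no member shares exon bases with another counted gene.

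Counts were filtered with filterByExpr, scaled by TMM and tested with edgeR 4.0.16 in R 4.3.3 (quasi-likelihood F test, Benjamini-Hochberg over 20168 genes, called at adjusted p below 0.05 and log2 fold change beyond 1). DESeq2 1.42.0, other scalings and filters, a block on the number in the titles and leaving out each library were alternatives. Ratios used a pseudocount of 0.5 and two-sided exact permutation tests. The code was tested on simulated data. Totals were 11263863 to 17643043 counts, so that 3 counts corresponded to 0.17 to 0.266 CPM.

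Replicates were numbered in accession order. Mice are taken as separate from the titles, and if they are not, p-values measure only the spread between samples. The members and lists were chosen with earlier results of these data known. Named besides the members were *Chrnb1*, in each list every called gene and the 3 tested genes with the smallest p-values, and the 5 genes most like the members' median profile. Some genes that this rule names are not reported here. Likeness was the root mean square difference over the 6 libraries.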

Additional observations from a re-analysis of the deposited data

How the results depend on the processing

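Among 126 alternative fits of single members, 125 kept a positive log2 fold change. These fits draw on the same 6 libraries and are not separate evidence. The same share over all genes is not given. *Myod1* ranged from -0.54 to 1.19 with single libraries left out, the low end without DKO library 1. No member was called, except *Chrnd*, so that the count was 1 with DESeq2 and 1 with no filter on low counts. Of the 5 members higher at an unadjusted p below 0.05, 2 remained within the libraries numbered 47347, and leaving out libraries gave 2 (without DKO library 1, WT library 1 or WT library 2) to 6. Called genes of the other lists, 1 in the edgeR fit, numbered 25 with DESeq2, 31 with no filter, 2 with the block on the title number, and 0 to 2 with a library left out: 0 without DKO library 3 or WT library 1, 2 or 3, and 2 without DKO library 2. Over all genes, calls were 14 in the edgeR fit, 154 with DESeq2 (98 higher), 210 with no filter (133 higher), 35 with the block and 22 without composition scaling, and 2 to 36 with a library left out (36 without DKO library 1, 33 without DKO library 2, 4 without DKO library 3, 3 without WT library 1, 2 without WT library 2 or 3). The cause of these shifts was not tested.

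The title number was used as a replicate block because replicate numbers follow accession order. Deviations of same-numbered WT and DKO libraries correlated at 0.23, -0.019, 0.144, 0.173 and -0.008, each above the values for differently numbered pairs (-0.119, -0.142, -0.104 and -0.152). Deviations were taken from group means and cancel within a group, so the values of the pairs are tied together and are not separate evidence. Not every same-numbered pair passed the limit of 0.1 set for pairing, so the block stayed an alternative. The block changed no member's call, and the adjusted p with it was 0.187 for *Chrnd* and 0.205 for *Chrna1*, while *Acta1* was called (0.0396). The log2 ratio of *Chrng* to *Chrne* differed by 0.39 as the unweighted mean of the differences within each title number, by -0.14 within the libraries numbered 47347 and by -0.18 to 0.53 with a library left out. The members' median relative to muscle fibre genes differed by -0.16 to 0.14 with a library left out.

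Directions also turned for *Chrnb1* (-0.10 to 0.48 over libraries left out), *Chrna2* (-0.24 to 0.48) and *Myocd* (-0.03 to 0.51). Relative to muscle fibre genes they turned for *Myf6* (-0.11 to 0.40), *Mymk* (-0.14 to 0.42, and -0.10 for that unweighted mean) and *Chrna1* (-0.13 to 0.24, -0.0018 with a pseudocount of 2, -0.03 against the list's median, and -0.10 for the unweighted mean, in which 2 libraries count as much as the other 4). An additive fit of genotype and title number was chosen after seeing the data. It gave 0.15 for *Mymk*, 0.01 for *Chrna1* and 0.21 for the *Chrng* to *Chrne* ratio, the values without a block. Both groups hold equally many libraries under each title number, so this fit must return those values. It is no check on the turned directions. Members with under 20 counts in a library, such as *Myf5*, *Pax7* and *Chrng*, are limited by depth.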
